A study of Homo sapiens with 60 samples.

Results

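The comparison set HT29 cells treated for 24 h with a hot water extract of Cnidii Rhizoma at 500 µg/mL against HT29 cells treated for 24 h with a hot water extract of Rehmanniae Radix Preparata at 500 µg/mL. HT29 is an established line from a human colorectal adenocarcinoma with an epithelial, mucin-producing character. Cnidii Rhizoma is a dried aromatic rhizome and Rehmanniae Radix Preparata is the steam-prepared root of Rehmannia, and both are classed as herbal drugs in East Asian pharmacopoeias. The members were the 6 libraries with these labels, 3 of each extract, out of 60 libraries in the series. Both groups carry the same sample code in the labels, and no vehicle library entered the test. The same 2 extracts at 20 and 100 µg/mL, 3 libraries per group, gave the matched lower doses and shared the estimate of spread, so that 18 libraries were fitted. Vehicle cells, 3 libraries, received dimethyl sulfoxide, at 0.1% in the sample labels and at 2% in the design text. Their levels are given beside the extracts as values only, since the vehicle libraries carry another sample code. A difference from vehicle was not tested and cannot be told apart from a difference between library sets. How many of all genes lay wholly above or below the vehicle libraries was not counted, so nothing is read from such positions. More toxic extracts were, by the design text, given at a lower top dose set by their growth inhibition, whereas the labels of both extracts here give 500 µg/mL. Whether the replicates came from separate cultures is not in the labels. The p-values therefore rest on spread among libraries that could be technical.

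The 6 libraries held 24458890 to 29641540 counts each. Among 30 enterocyte and keratin genes, 10 stayed under 1 CPM (counts scaled to library size) in all 6 libraries, SI and FABP2 among them. Others of the list were abundant. The keratin KRT8 had a mean of 5679 CPM in Cnidii Rhizoma and 5766 CPM in Rehmanniae Radix Preparata. The epithelial adhesion molecule EPCAM had 536 CPM in Cnidii Rhizoma and 509 CPM in Rehmanniae Radix Preparata. Of 10 fibroblast markers, 8 stayed under 1 CPM in all 6 libraries, and their summed level was 1.85 to 2.66 CPM in Cnidii Rhizoma and 2.07 to 2.26 CPM in Rehmanniae Radix Preparata. The summed level of 10 leukocyte markers was 1449 to 1502 CPM in Cnidii Rhizoma and 1354 to 1411 CPM in Rehmanniae Radix Preparata, nearly all of it lysozyme, LYZ, and that of 10 hepatocyte markers was 393 to 428 CPM in Cnidii Rhizoma and 403 to 504 CPM in Rehmanniae Radix Preparata, nearly all of it SERPINA1. The 8 endothelial markers summed to 25.6 to 28.5 CPM in Cnidii Rhizoma and 25.8 to 28.8 CPM in Rehmanniae Radix Preparata, most of it ENG. Within these lists ALPI, AQP8, COL1A2, PDGFRA, CD3D, MS4A1, TYROBP, ALB, APOC3, FGB, KDR and EMCN were at 0 in all 6 libraries. Replicate 2 of Rehmanniae Radix Preparata stood apart. Mitochondrially encoded mRNAs took 12.641% of its counts, against 8.725% to 9.35% in the other 5 libraries. In the fitted libraries at 20 and 100 µg/mL this share ran from 7.484% to 11.472%. Replicate 2 also had the highest position on the first principal component of the 18 libraries, at 30.17, where the others lay between -12.87 and 15.96. That component held 11.1% of the variance. Counts of calls between the extracts, and list values that move without it, are therefore also given without that library.

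Several of the genes below belong to programmes that respond to plant compounds in gut epithelium. NRF2 is a transcription factor released from its repressor KEAP1 by electrophiles, and it induces aldo-keto reductases and enzymes that make glutathione and NADPH. The aryl hydrocarbon receptor, AhR, is activated by flat aromatic ligands and induces CYP1 oxidases. The SREBP factors drive sterol and fatty acid synthesis when membrane cholesterol is low, and ATF4 drives amino acid and stress genes when translation is restrained.

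At 500 µg/mL the extracts differed in a small set of genes. Of 15773 genes tested, 15 passed an adjusted p under 0.05 (edgeR's quasi-likelihood test with Benjamini-Hochberg adjustment), which is 0.0951% of them. In Cnidii Rhizoma 2 genes were higher, AKR1B10 among them, and 13 genes were lower. ADD2, IGFL2-AS1, ANKRD29, UCA1, SLC6A20, TRIB3, CYP1B1, HDAC5, MUC13, NMUR2, TRIM31, SAV1 and SCD were the lower ones, in order of their log2 fold changes. Fold changes are Cnidii Rhizoma over Rehmanniae Radix Preparata on the log2 scale. Their absolute size ran from 0.22 to 2.18 with a median of 0.37, and the median over all genes tested was 0.00. At an unadjusted p under 0.05 there were 547 higher and 553 lower genes. Without replicate 2 of Rehmanniae Radix Preparata, 11 genes were called, of which 10 were among the 15. NMUR2, SAV1, UCA1 and IGFL2-AS1 were among those then not called, and ACSS2 was added.

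**Figure D1:**
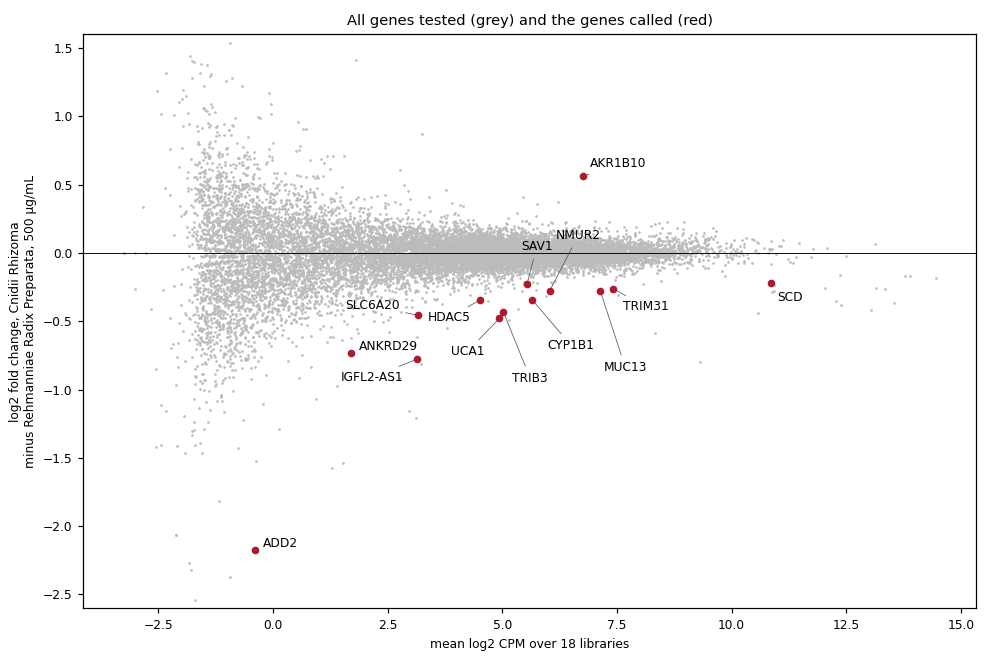
Log2 fold change of Cnidii Rhizoma minus Rehmanniae Radix Preparata at 500 µg/mL (vertical axis) against the mean log2 CPM over 18 libraries (horizontal axis), 1 point per gene tested. Of the 15 called genes, 14 are drawn in red and named, with AKR1B10 above and 13 below the zero line, and 28 uncalled genes lie outside the vertical range.

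The number of calls rested on the libraries in the fit. Fitted on the 6 libraries alone, with no lower dose to share the spread, the same test called 1 gene, AKR1B10. Leaving out replicates 1, 2 and 3 of Cnidii Rhizoma in turn gave 8, 3 and 2 calls, and leaving out replicates 1 and 3 of Rehmanniae Radix Preparata gave 8 and 6. AKR1B10 and ADD2 were called in all 6 of these fits with a library left out, CYP1B1 in 5, and MUC13, TRIM31 and UCA1 in 3. HDAC5, SLC6A20 and IGFL2-AS1 were called in 2, ANKRD29, NMUR2, SCD and TRIB3 in 1, and SAV1 in 0. All 15 genes kept their sign and an unadjusted p under 0.05 in each of these fits.

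AKR1B10, an aldo-keto reductase that uses NADPH to reduce retinaldehyde and lipid aldehydes, was the gene with the smallest adjusted p. Its level was 180.2, 177 and 175 CPM in the 3 Cnidii Rhizoma libraries, against 129, 113 and 118 CPM in the 3 Rehmanniae Radix Preparata libraries. Every Cnidii Rhizoma library lay above every Rehmanniae Radix Preparata library. The log2 fold change was 0.56 ± 0.06 (SE), a 1.48-fold higher level, with an adjusted p of 0.0002045 (edgeR). Vehicle cells, under another sample code, had 97.4, 87.0 and 85.5 CPM, below the libraries of both extracts, a difference that was not tested. The gene lies on chromosome 7 from 134527592 to 134541408 on the plus strand (GRCh38).

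After the called genes, the next 4 higher genes by p missed the test at 500 µg/mL. WNT11, a non-canonical WNT ligand, had a log2 fold change of 0.35 with an adjusted p of 0.05197 (edgeR), and CLEC3A, a secreted C-type lectin domain protein, had 0.22 with 0.06025. TXNIP, the thioredoxin-binding arrestin that rises with glucose, and AKR1C2, a steroid-reducing relative of AKR1B10, had 0.23 and 0.46, each with an adjusted p of 0.1012.

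MUC13, SLC6A20 and NMUR2, which encode proteins of the cell surface, were lower. MUC13, a membrane-spanning mucin of the gut, had 122, 116 and 119 CPM in Cnidii Rhizoma, against 147, 149 and 138 CPM in Rehmanniae Radix Preparata. Its log2 fold change was -0.28 ± 0.04 (SE), which is -17.7%, with an adjusted p of 0.009528 (edgeR). Vehicle cells had 154, 156 and 150.1 CPM, above all 6 extract libraries. SLC6A20, a sodium-coupled proline transporter, had 6.52, 6.87 and 6.81 CPM in Cnidii Rhizoma, against 8.98, 8.86 and 9.92 CPM in Rehmanniae Radix Preparata, a log2 fold change of -0.46 ± 0.08 (SE). NMUR2, a receptor for the neuropeptide neuromedin U, averaged 57.1 ± 2.89 CPM in Cnidii Rhizoma and 69.3 ± 2.22 CPM in Rehmanniae Radix Preparata (SD, n = 3 each). The vehicle averaged 10.1 ± 0.73 CPM for SLC6A20 and 69.2 ± 2.34 CPM for NMUR2 (SD, n = 3), and all 3 Cnidii Rhizoma libraries lay below all vehicle libraries for both genes.

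The enzymes CYP1B1 and SCD were lower. CYP1B1, a cytochrome P450 of the AhR programme that oxidises steroids and aromatic compounds, had 44.6, 47.4 and 44.6 CPM in Cnidii Rhizoma, against 59.7, 58.5 and 55.3 CPM in Rehmanniae Radix Preparata. The log2 fold change was -0.35 ± 0.05 (SE), with an adjusted p of 0.004208 (edgeR). In vehicle cells replicate 1 had 86.6 CPM and the other replicates 54.5 and 52.7 CPM, so the vehicle level of this gene was not uniform. SCD, the desaturase that makes monounsaturated fatty acids, was the most abundant of the called genes, with 1729, 1689 and 1668 CPM in Cnidii Rhizoma, against 2027, 1893 and 1994 CPM in Rehmanniae Radix Preparata. Its log2 fold change was -0.22 ± 0.04 (SE), which is -14%, with an adjusted p of 0.0402 (edgeR). The 3 vehicle libraries, at 1794, 1867 and 1825 CPM, lay above the Cnidii Rhizoma libraries and below the Rehmanniae Radix Preparata libraries.

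TRIB3, a pseudokinase induced in the ATF4 stress response, had 28.9, 26.1 and 29.6 CPM in Cnidii Rhizoma, against 41.3, 32.9 and 39.9 CPM in Rehmanniae Radix Preparata. The groups did not overlap, and the lowest Rehmanniae Radix Preparata value came from replicate 2. The log2 fold change was -0.43 ± 0.07 (SE), with an adjusted p of 0.01708 (edgeR). Vehicle cells averaged 30.7 ± 1.52 CPM (SD, n = 3).

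HDAC5, TRIM31, SAV1 and UCA1 were also lower. HDAC5, a class IIa histone deacetylase, averaged 18.5 ± 0.29 CPM in Cnidii Rhizoma and 23.6 ± 1.48 CPM in Rehmanniae Radix Preparata (SD, n = 3 each). TRIM31, a ubiquitin ligase of the gut epithelium, had 153, 147 and 156 CPM in Cnidii Rhizoma, against 179, 183 and 185 CPM in Rehmanniae Radix Preparata. SAV1, the scaffold of the Hippo kinases, had 43.7, 44.5 and 41.7 CPM in Cnidii Rhizoma, against 50.3, 50.9 and 50.8 CPM in Rehmanniae Radix Preparata. UCA1, a long noncoding RNA found in several carcinomas, averaged 24.3 ± 1.52 CPM in Cnidii Rhizoma and 33.9 ± 3.5 CPM in Rehmanniae Radix Preparata (SD, n = 3 each). The log2 fold changes of HDAC5, TRIM31, SAV1 and UCA1 were -0.34, -0.26, -0.23 and -0.48.

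The 3 remaining lower genes were ADD2, ANKRD29 and IGFL2-AS1, and ADD2 had the lowest level of the 15 called genes. ADD2, the beta subunit of adducin, which caps actin filaments at the membrane skeleton, had 0.237, 0.348 and 0.202 CPM in Cnidii Rhizoma, against 1.17, 1.40 and 1.02 CPM in Rehmanniae Radix Preparata. Its log2 fold change, -2.18 ± 0.27 (SE), was the largest of the 15, with an adjusted p of 0.001152 (edgeR), and DESeq2 gave it no adjusted p. It rested on 7, 9 and 5 counts in Cnidii Rhizoma and on 32, 38 and 25 counts in Rehmanniae Radix Preparata. ANKRD29 had 2.47, 2.39 and 2.54 CPM in Cnidii Rhizoma, against 4.64, 3.77 and 3.88 CPM in Rehmanniae Radix Preparata, a log2 fold change of -0.73. IGFL2-AS1, an antisense transcript whose counts may hold reads of the opposite strand because the strand setting is not given in the sources used here, averaged 6.00 ± 0.81 CPM in Cnidii Rhizoma and 10.3 ± 1.07 CPM in Rehmanniae Radix Preparata (SD, n = 3 each). In all 15 called genes the libraries of the extracts did not overlap. Over all genes tested, 5.59% had all Cnidii Rhizoma libraries above all Rehmanniae Radix Preparata libraries and 5.96% had them all below.

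**Figure D2:**
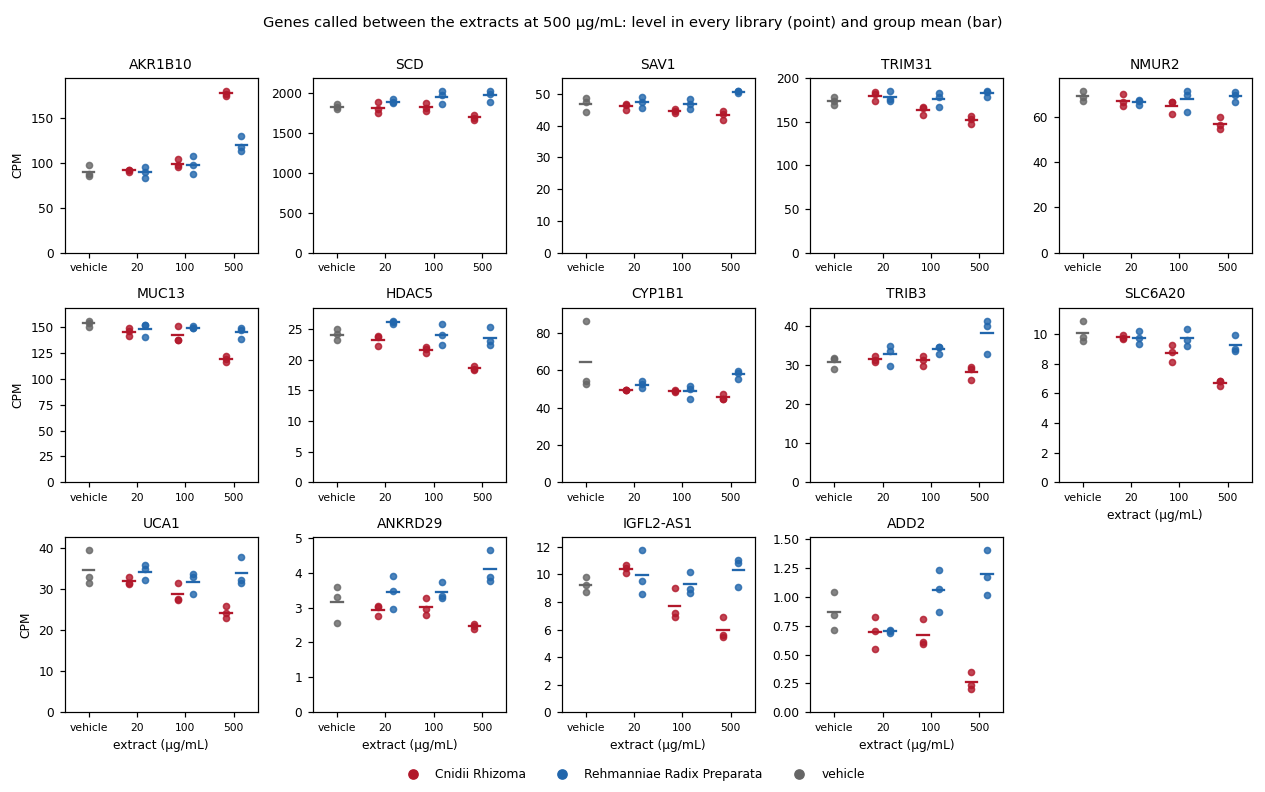
Level in CPM (vertical axes from 0, a separate scale for each gene) of 14 of the 15 called genes in vehicle cells and at 20, 100 and 500 µg/mL of each extract (horizontal axes), 1 point per library with the group mean as a bar. At 500 µg/mL the 3 red Cnidii Rhizoma points do not overlap the 3 blue Rehmanniae Radix Preparata points in any panel.

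Promoter windows from RefSeq (GRCh38.p14, 250 bases before to 50 after a transcript start) were matched for 8 of the 15 called genes. The windows of 3 lower genes with different roles, a lipid enzyme, a mucin and a stress pseudokinase, are shown with 1 of the searched motifs in capitals in each, chosen after the matches were seen. SCD lies at chr10:100346983-100347282 on the plus strand, and capitals mark the CCAAT box, the binding element of NF-Y, a factor that works with SREBP. MUC13 lies at chr3:124934702-124935001 on the minus strand, and capitals mark TGACGTCA, the full cyclic AMP response element. TRIB3 has 3 overlapping windows, of which the first, chr20:381045-381344 on the plus strand, is shown with GCGTG, the core of the AhR-bound xenobiotic response element, in capitals. The sequences run 5′ to 3′.
SCD: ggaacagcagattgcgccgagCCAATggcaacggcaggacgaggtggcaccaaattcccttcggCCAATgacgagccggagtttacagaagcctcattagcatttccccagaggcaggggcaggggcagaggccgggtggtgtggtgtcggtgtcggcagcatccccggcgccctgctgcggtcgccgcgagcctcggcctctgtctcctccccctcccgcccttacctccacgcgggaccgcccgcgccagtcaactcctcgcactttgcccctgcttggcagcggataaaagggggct
MUC13: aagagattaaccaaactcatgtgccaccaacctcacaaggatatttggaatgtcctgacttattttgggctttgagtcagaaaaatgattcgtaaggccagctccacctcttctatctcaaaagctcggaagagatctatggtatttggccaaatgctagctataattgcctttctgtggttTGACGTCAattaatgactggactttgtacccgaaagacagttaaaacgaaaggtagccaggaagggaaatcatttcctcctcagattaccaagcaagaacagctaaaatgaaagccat
TRIB3: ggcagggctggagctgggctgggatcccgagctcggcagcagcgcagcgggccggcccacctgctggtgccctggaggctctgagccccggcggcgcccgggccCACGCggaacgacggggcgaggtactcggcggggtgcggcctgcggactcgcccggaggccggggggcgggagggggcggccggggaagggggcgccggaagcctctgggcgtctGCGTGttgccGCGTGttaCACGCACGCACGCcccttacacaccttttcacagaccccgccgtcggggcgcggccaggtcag
The SCD window held CCAAT at 2 places, 229 and 186 bases before the start, the MUC13 window held TGACGTCA once, 68 bases before the start, and the TRIB3 window held GCGTG at 6 places, which overlap in part. Each motif was searched on both strands. CCAAT occurred in 34.61% of all 35116 windows in the table, TGACGTCA in 1.85% and GCGTG in 36.54%. Among the 8 called genes with a window, CCAAT was present for NMUR2, TRIM31 and SCD, GCGTG for TRIB3 and SCD, and TGACGTCA for MUC13. The AP-1 site TGANTCA (7.71% of windows) was present for MUC13, and the antioxidant response element core TGACNNNGC (13.35%) for TRIB3. TCACNCCAC, a sterol regulatory element, and TGATGNAA, an ATF4 element core, were in none of these windows, and occurred in 1.13% and 3.62% of all windows. A match describes letters in the window and not binding.

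The same contrast at the matched lower doses called 0 genes at either 20 or 100 µg/mL, which is 0% of the 15773 tested at each dose (edgeR). At an unadjusted p under 0.05 the low dose had 775 genes and the middle dose 446, and DESeq2 called 3 at the low and 0 at the middle dose. Of the 15 genes called at 500 µg/mL, 11 had the same sign at the low dose and 14 at the middle dose. All 15 had their largest absolute value at 500 µg/mL, the dose at which they were chosen. That choice favours a largest value there, so the pattern is a description and no evidence of dose dependence. The libraries of the extracts did not overlap for 3 of the 15 at 20 µg/mL and for 7 at 100 µg/mL. The share over all genes tested was not counted at these doses, so nothing is read from these counts. AKR1B10 had log2 fold changes of 0.03, 0.02 and 0.56 at the rising doses. ADD2 had -0.01, -0.67 and -2.18 at the same doses.

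Whether the difference itself depended on dose was tested as the difference at 500 minus the difference at 20 µg/mL. No gene, 0% of those tested, passed an adjusted p under 0.05 in edgeR, 650 had an unadjusted p under 0.05, and DESeq2 called 1. AKR1B10, at 0.53 ± 0.09 (SE), and ADD2, at -2.17 ± 0.38 (SE), had the smallest adjusted p, 0.1004 each. The 500 µg/mL libraries enter both contrasts, so the interaction values of genes chosen at 500 µg/mL are a description.

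**Figure D3:**
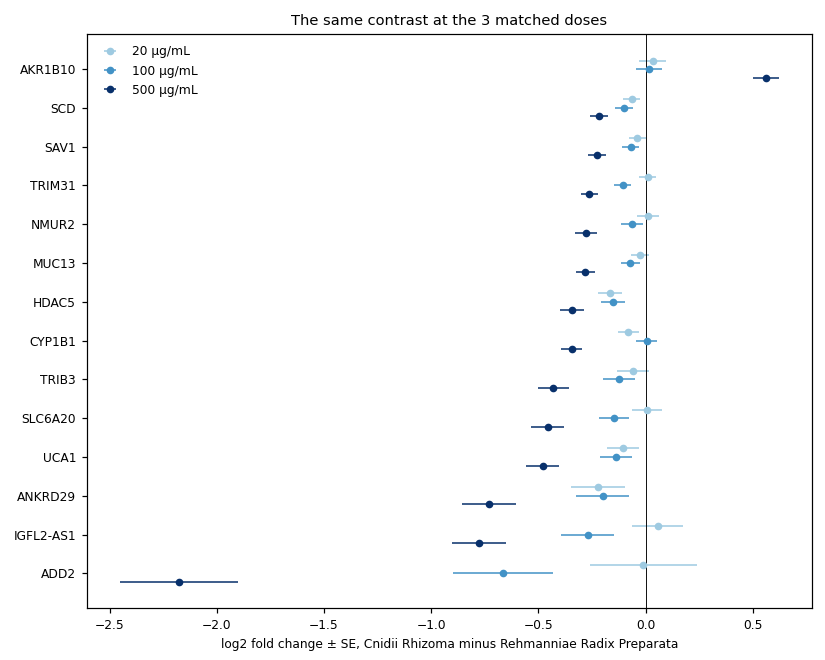
Log2 fold change of Cnidii Rhizoma minus Rehmanniae Radix Preparata with its SE (horizontal axis) for 14 of the 15 called genes (vertical axis) at 20, 100 and 500 µg/mL, from light to dark blue. The genes were chosen at 500 µg/mL, which favours large values there, and these lie farthest from zero for every gene drawn. AKR1B10 lies at 0.03, 0.02 and 0.56 at the rising doses.

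Levels at 500 and 20 µg/mL were also compared within each extract. Within Cnidii Rhizoma 55 genes, 34 higher and 21 lower, passed the test (0.349% of those tested), and within Rehmanniae Radix Preparata 21 genes, 13 higher and 8 lower, passed it (0.133%). These contrasts share the 500 µg/mL libraries with the main comparison and are given beside it. Choosing the 15 genes at 500 µg/mL favours differing values with dose in the 2 extracts, so their values here are a description. A call in 1 extract and none in the other is not a tested difference between them. AKR1B10 rose in both, by 0.95 ± 0.06 (SE) on the log2 scale in Cnidii Rhizoma and by 0.43 ± 0.06 (SE) in Rehmanniae Radix Preparata, with adjusted p of 2.373e-08 and 0.002039 (edgeR). Of the 15 genes, 8 were called with dose in Cnidii Rhizoma, and AKR1B10 was the 1 called in Rehmanniae Radix Preparata. Without replicate 2 of Rehmanniae Radix Preparata at 500 µg/mL the calls were 63 in Cnidii Rhizoma, 55 of them shared with the fit of all libraries, and 19 in Rehmanniae Radix Preparata, 13 of them shared. Of the 15 genes, 9 were then called in Cnidii Rhizoma, with NMUR2 added, and AKR1B10 was again the 1 called in Rehmanniae Radix Preparata.

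The 7 others called with dose in Cnidii Rhizoma were MUC13, SLC6A20, TRIM31, HDAC5, UCA1, IGFL2-AS1 and ADD2, and all fell. MUC13 averaged 119 ± 3.01 CPM at 500 µg/mL of Cnidii Rhizoma and 145 ± 3.68 CPM at 20 µg/mL, against 145 ± 5.81 and 148 ± 6.79 CPM at 500 and 20 µg/mL of Rehmanniae Radix Preparata (SD, n = 3 each). SLC6A20 fell by 0.54 on the log2 scale with dose in Cnidii Rhizoma, and its value in Rehmanniae Radix Preparata was -0.08. TRIB3, CYP1B1, SAV1, SCD and ANKRD29 were called with dose in neither extract. For these 5 the values with dose were negative in Cnidii Rhizoma, from -0.25 to -0.09, and positive in Rehmanniae Radix Preparata, from 0.06 to 0.25. The choice of genes at 500 µg/mL favours such opposite signs. TRIB3 had -0.16 in Cnidii Rhizoma and 0.22 in Rehmanniae Radix Preparata, and SCD had -0.09 and 0.06.

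Part of the NRF2 targets rose with dose in each extract, and AKR1B10 was the 1 member of the list called between the extracts at 500 µg/mL. With dose, 17 of 28 measured members passed the test in Cnidii Rhizoma, all higher, with a list median of 0.32, and 7 of 28 passed in Rehmanniae Radix Preparata, all higher, with a median of 0.23. The 6 members called in both are 6 of the 17 and 6 of the 7, with AKR1B10, SLC7A11, ME1, TKT and FTL among them. All 28 had a positive value in both extracts. Without replicate 2 of Rehmanniae Radix Preparata at 500 µg/mL, a fit chosen after seeing the data, 18 were called in Cnidii Rhizoma and 8 in Rehmanniae Radix Preparata, all higher. The median over all genes tested was 0.00 in each of these contrasts.

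Between the extracts at 500 µg/mL, 1 of the 28 members was called higher, 0 were called lower, 23 had a positive value, and the list median was 0.08, against 0.00 over all genes tested. Without replicate 2 of Rehmanniae Radix Preparata, 21 of 28 were positive with a median of 0.07. After AKR1B10 the aldo-keto reductases AKR1C2 and AKR1C3 had the largest values, 0.46 and 0.41, and AKR1C1 had 0.15. None of the 3 was called, and reads of these near-identical genes were divided among them by estimation. AKR1C3 had 68.2, 61.9 and 64.5 CPM in Cnidii Rhizoma, against 53.5, 45.6 and 47.4 CPM in Rehmanniae Radix Preparata, without overlap.

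Among the members that supply NADPH and glutathione, none was called between the extracts. ME1, the malic enzyme, averaged 114 ± 0.98 CPM in Cnidii Rhizoma and 114 ± 2.21 CPM in Rehmanniae Radix Preparata (SD, n = 3 each), a log2 difference of 0.00 with a 95% interval from -0.07 to 0.08. ME1 rose with dose in both extracts, by 0.31 in Cnidii Rhizoma and by 0.29 in Rehmanniae Radix Preparata. SLC7A11, the cystine importer, and GCLM, a subunit of the enzyme that starts glutathione synthesis, differed by -0.01 and 0.02, with intervals from -0.15 to 0.12 and from -0.14 to 0.17. GCLC, the catalytic subunit of that enzyme, and GSR, which reduces oxidised glutathione, were uncalled at 0.17 and 0.12, with unadjusted p of 0.0388 and 0.01659 (edgeR). HMOX1, heme oxygenase, differed by -0.08, with an interval from -0.26 to 0.09. NQO1, a quinone reductase, was uncalled at 0.17, with an interval from 0.06 to 0.29, and TXNRD1, thioredoxin reductase, at 0.21, with an interval from 0.02 to 0.40. NQO1 had 0.10 and TXNRD1 0.12 without replicate 2 of Rehmanniae Radix Preparata, and without replicate 1 TXNRD1 had 0.34.

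**Figure D4:**
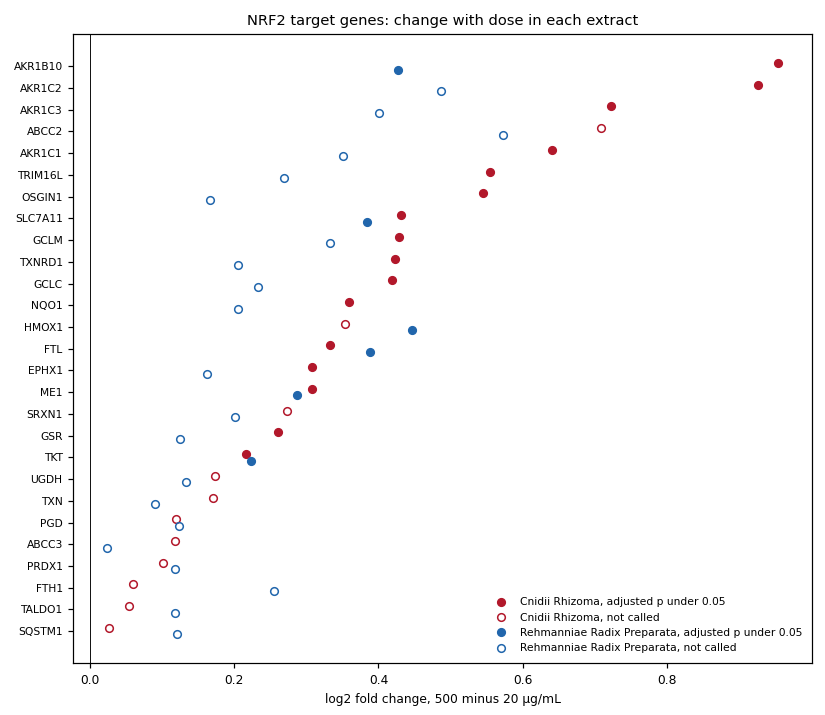
Log2 fold change from 20 to 500 µg/mL (horizontal axis) of 27 of the 28 NRF2 target genes (vertical axis) in Cnidii Rhizoma (red) and Rehmanniae Radix Preparata (blue), with filled points for an adjusted p under 0.05. All points lie above zero, 16 red and 6 blue points are filled, and AKR1B10 reaches 0.95 in Cnidii Rhizoma and 0.43 in Rehmanniae Radix Preparata.

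Of the 8 measured AhR targets, 4 had positive and 4 had negative values. CYP1B1 was called lower in Cnidii Rhizoma, and the list median was 0.05, or 0.02 without replicate 2 of Rehmanniae Radix Preparata. CYP1A1, the classic AhR-induced oxidase, was uncalled at 0.743, 0.695 and 0.685 CPM in Cnidii Rhizoma, against 1.39, 0.812 and 1.51 CPM in Rehmanniae Radix Preparata, where replicate 2 was the lowest. Its log2 fold change was -0.79, with a 95% interval from -1.35 to -0.24. UGT1A6 and ALDH3A1, conjugating and aldehyde-oxidising enzymes of the same programme, had positive uncalled values of 0.18 and 0.15, with UGT1A6 sharing exons with the other UGT1A genes. Both rose with dose in each extract, UGT1A6 by 0.46 in Cnidii Rhizoma and 0.35 in Rehmanniae Radix Preparata and ALDH3A1 by 0.72 in Cnidii Rhizoma and 0.56 in Rehmanniae Radix Preparata.

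In the SREBP programme most values were negative, and 1 gene was called. Of 25 measured genes of cholesterol synthesis and uptake, 0 were called, 24 were negative, 6 had all Cnidii Rhizoma libraries below all Rehmanniae Radix Preparata libraries, and the median was -0.10. Over all genes tested, 7896 of 15773 were negative and 5.96% lay apart in this way. By edgeR 7 of the 25 had a negative value at an unadjusted p under 0.05, against 553 of the 15773 genes tested. Without replicate 2 of Rehmanniae Radix Preparata, 24 of 25 were again negative and the median was -0.15. At 20 and 100 µg/mL the list medians were 0.00 and -0.03. INSIG1, the sterol sensor that retains SREBP, had -0.31 ± 0.09 (SE), and HMGCS1, which makes the precursor of mevalonate, had -0.22 ± 0.11 (SE), with adjusted p of 0.3028 and 0.715 (edgeR). HMGCS1 had 277, 229 and 231 CPM in Cnidii Rhizoma, against 318, 274 and 269.8 CPM in Rehmanniae Radix Preparata. Replicate 1 was the highest library of this gene in both groups, and the groups overlapped.

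Of 12 measured genes of fatty acid synthesis, 1 was called lower, SCD, 9 were negative, and the median was -0.12. In the fit without replicate 2 of Rehmanniae Radix Preparata, 2 were called lower, 10 were negative and the median was -0.11. With all libraries kept, 7 of the 12 had every Cnidii Rhizoma library below every Rehmanniae Radix Preparata library. Over all genes tested this share was 5.96%. ACSS2, which makes acetyl-CoA from acetate, had 22.5, 20.5 and 19.2 CPM in Cnidii Rhizoma, against 27.9, 23.4 and 28.5 CPM in Rehmanniae Radix Preparata. Its log2 fold change was -0.35 ± 0.08 (SE), with an adjusted p of 0.1012 with all libraries and of 0.02242 without replicate 2 of Rehmanniae Radix Preparata (edgeR). FASN, fatty acid synthase, averaged 852 CPM in Cnidii Rhizoma and 957 CPM in Rehmanniae Radix Preparata, a log2 fold change of -0.17 ± 0.05 (SE) that was not called.

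The 17 measured genes of the PPAR and fatty acid oxidation list had a median of 0.03. CPT1A, the carnitine step that admits fatty acids to mitochondria, had 0.05 ± 0.04 (SE). In the ATF4 amino acid list 1 of 31 was called lower, TRIB3, 17 were negative, and the median was -0.01, and 23 were negative with a median of -0.02 without replicate 2 of Rehmanniae Radix Preparata. ASNS, asparagine synthetase, had -0.16, with a 95% interval from -0.25 to -0.06, and CHAC1, a glutathione-degrading enzyme, had -0.24, with an interval from -0.63 to 0.14. Neither was called.

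Among 23 measured goblet and secretory genes, 1 was called lower, MUC13, 15 were negative and the median was -0.02. The balance turned without replicate 2 of Rehmanniae Radix Preparata, to 10 negative, 13 positive and a median of 0.01, while MUC13 was still called. MUC12, another membrane mucin, averaged 8.48 ± 0.36 CPM in Cnidii Rhizoma and 10.9 ± 1.02 CPM in Rehmanniae Radix Preparata (SD, n = 3 each), a log2 fold change of -0.36 that was not called. AGR2 and AGR3, disulfide isomerases of secretory cells, had uncalled positive values of 0.19 and 0.50. The differentiation keratin KRT20 had -0.03, with a 95% interval from -0.16 to 0.09. Of 19 measured NF-kB genes 0 were called. The neutrophil attractants CXCL1 and CXCL8 had 0.71 and 0.37, with intervals from 0.27 to 1.16 and from 0.13 to 0.62. CXCL1 had 3.28, 2.93 and 3.39 CPM in Cnidii Rhizoma, against 2.67, 1.88 and 1.26 CPM in Rehmanniae Radix Preparata.

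The lists that follow held no called member. Over all genes tested, 7873 of 15773 were positive and 7896 were negative at 500 µg/mL. Of 44 S phase and DNA replication genes, 37 were positive with a median of 0.06, and 35 with a median of 0.04 without replicate 2 of Rehmanniae Radix Preparata. Of 30 MAPK feedback and immediate early genes, 22 were negative with a median of -0.09, and 24 with a median of -0.06 without it. All 13 mitochondrially encoded mRNAs were negative with a median of -0.28, and without that library, the one with the high mitochondrial share, 12 were negative and the median was -0.08. Ribosomal protein genes were positive in 31 of 35 with a median of 0.09, and in 34 of 35 with a median of 0.05 without that library. Proteasome genes were positive in 27 of 31 with a median of 0.06, and in 21 of 31 with a median of 0.01 without it. The part of that library's composition in the other list medians was not tested beyond these values. The same contrast at 20 and 100 µg/mL had medians of 0.106 and 0.035 for ribosomal protein and 0.062 and 0.032 for proteasome genes. At these doses the S phase list had 0.021 and 0.018, the MAPK list -0.046 and -0.008, and the mitochondrially encoded mRNAs -0.049 and 0. The ribosomal and proteasome medians at 20 µg/mL were thus as large as those at 500 µg/mL.

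**Figure D5:**
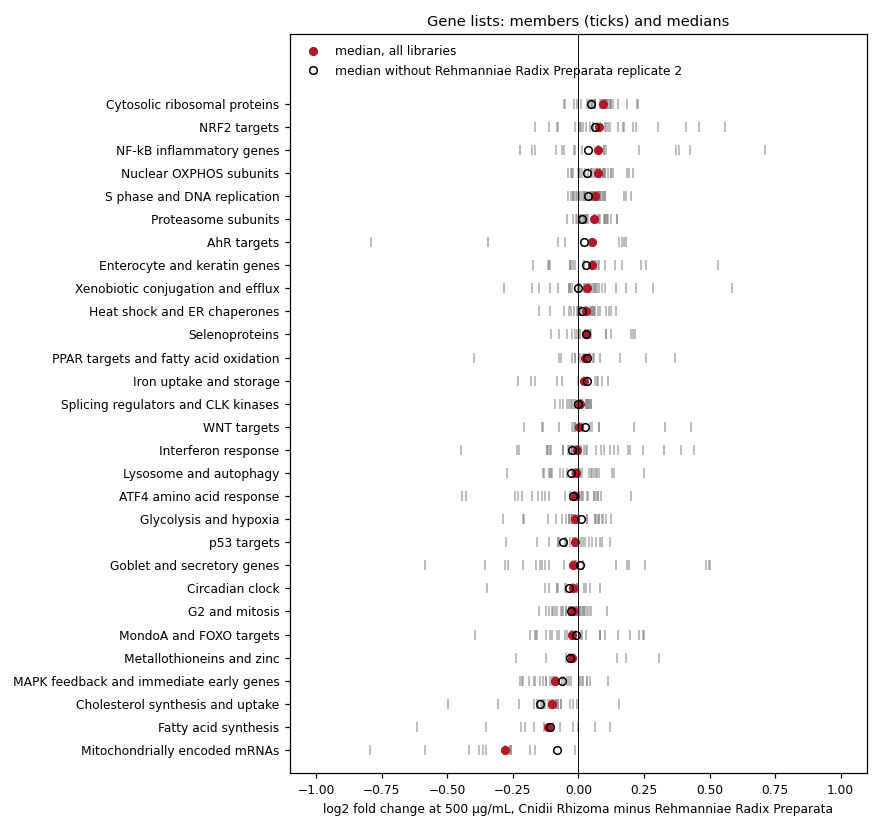
Log2 fold change at 500 µg/mL of Cnidii Rhizoma minus Rehmanniae Radix Preparata (horizontal axis) for the measured members of 29 gene lists (grey ticks), with the list median over all libraries (red) and without replicate 2 of Rehmanniae Radix Preparata (open circle). The mitochondrially encoded mRNAs have a median of -0.28 with all libraries and of -0.08 without that replicate, and the cholesterol list has -0.10 and -0.15.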

How the data were processed

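RNA of HT29 cells (integrity number above 7) was sequenced from strand-marking libraries as pairs of 100 bases, per the labels' protocols. The authors deposited RSEM expected counts, which are estimated counts, for 60675 genes without normalizing them. The submitters' processing notes name GRCh38, RSEM 1.3.3, STAR 2.7.3a, Trim Galore 0.6.5 and FastQC 0.11.9, while the annotation release and strand setting were not given in the sources used here. Before testing, values were rounded, since 8.8% were not whole. The 60 columns the labels tie to these samples were mapped, and 213 other columns were not used. Expected counts divide reads between near-identical genes, so AKR1C, UGT1A and metallothionein genes are uncertain relative to each other.

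Genes were tested by quasi-likelihood in edgeR 4.0.16 under R 4.3.3 on the 18 libraries of both extracts at 3 doses, 1 coefficient per group, TMM factors (0.955 to 1.025), filterByExpr with a minimum count of 10, and Benjamini-Hochberg adjustment over the 15773 genes kept, called at an adjusted p under 0.05. The common biological coefficient of variation was 0.048. CPM were scaled with TMM over these and the vehicle libraries, which the test left out. DESeq2 1.42.0 and other settings were alternatives. Gene names came from a table of names for 56558 identifiers and GENCODE release 29 for 497; coordinates are those of that release.

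Named genes were up to 12 called genes per direction by size with a mean log2 CPM of at least 1, libraries that did not overlap and an ordinary symbol, with the next by unadjusted p up to 6 where fewer were called, called list members, and a panel of 38 genes given whatever their values. ADD2, IGFL2-AS1 and the uncalled INSIG1, FASN, CPT1A, AGR2, AGR3, GCLC and GSR fall outside that rule and were named after their values were seen. Some genes that met the rule are not reported here. Genes, lists and tests were chosen with earlier results of these data known. Levels are not scaled by gene length, so they compare groups and not genes.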

Additional observations from a re-analysis of the deposited data

How the results depend on the processing

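At 500 µg/mL the direction of all 15 called genes held in every alternative run. The count of 15 became 220 with no filter on low counts, of which 205 had been tested with the filter as well, 24 with all 57 libraries in the fit, 39 with DESeq2 and 1 with only the 6 libraries compared. RLE and upper quartile factors each gave 15, and a filter of CPM at least 1 in 3 libraries gave 17. Of the 15, 11 were called with all 57 libraries, and DESeq2 called the 14 that it gave an adjusted p, ADD2 having none. Leaving out 1 library gave 2 to 11. At 100 µg/mL the count of 0 became 73 with no filter. At 20 µg/mL the count of 0 became 124 with no filter, 2 with only the 6 libraries of that dose and 3 with DESeq2. For the difference at 500 minus that at 20 µg/mL, the count of 0 became 111 with no filter, 2 with all 57 libraries and 1 with DESeq2, and leaving out 1 library gave 0 to 1. The cause was not tested. A replicate block, with the replicate number as a term, gave 52 calls at 500 µg/mL, all 15 among them together with INSIG1, HMGCS1 and CYP51A1 of the cholesterol list and AKR1C2, AKR1C3 and GCLC of the NRF2 list, and 3 for the difference between doses. Whether the numbers pair the samples was not settled. Over all genes tested, libraries of the same number correlated at -0.034 to 0.059 in their deviations from the group means. At 500 µg/mL the highest correlation with another number was larger for replicates 2 and 3. Correlations over all genes cannot exclude a replicate effect shared by some genes. HMGCS1 and TXNRD1 were highest in replicate 1 in both extracts at all 3 doses, and such genes were not counted. Depth limits the low genes, since ADD2 rested on 5 to 9 counts per Cnidii Rhizoma library and on 25 to 38 per Rehmanniae Radix Preparata library.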
